A study of Mus musculus with 38 samples.

Results

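The comparison described here is that of CHD1 conditional knockout (cKO) with wild-type (WT) 2D2 T cells recovered from draining lymph nodes (dLN) of mice with experimental autoimmune encephalomyelitis (EAE). Its members are the 7 libraries labelled as dLN cells of the CHD1 experiment, 4 cKO and 3 WT, of 38 samples in the whole series. Naive T cells carrying the 2D2 receptor came from donors labelled Chd1 WT or Chd1 KO on a C57/B6 background. All were turned in culture into Th17 cells of the kind the submitters call Th17Inf and then given to WT recipients, and 2D2+ cells were sorted at the peak of disease. Each library was made from 2000 sorted cells with a modified SMART-Seq2 protocol, 12 cycles of amplification and Nextera XT, and RNA was measured across all genes. Neither the labels nor the design text used here names the Cre driver, the age of the mice or how many recipients a library stands for. The p-values therefore cover the spread between libraries, which may be technical.

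CHD1 is an ATP-dependent chromatin remodeller that binds methylated histone H3 at active genes and helps RNA polymerase II pass nucleosomes. The 2D2 receptor is a transgenic T cell receptor that recognises a peptide of myelin oligodendrocyte glycoprotein, and 2D2 cells are CD4 T cells. In the lymph node such cells can divide, hold a resting or memory-like state or leave for the central nervous system (CNS), where Th17 cells drive EAE. The comparison asks which RNAs differed between cKO and WT donor cells in the lymph node. CD8 and cytotoxic RNA is described apart from other T cell genes.

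Levels are given as scaled CPM, CPM computed with library sizes after TMM scaling. Total counts ran from 3148634 to 5158450 per library, of which 41.8% to 59.7% fell on repeat and ribosomal RNA features. A count of 0 in 1 library allows a level of up to 0.647 to 0.830 scaled CPM, and this covers counting error only. Chd1, the targeted gene, stood at 5.11, 4.70 and 4.78 scaled CPM in WT libraries 1 to 3 and at 4.10, 5.44, 2.58 and 3.37 in cKO libraries 1 to 4. The groups overlapped (log2 fold change -0.33, SE 0.29, adjusted p = 0.562, edgeR quasi-likelihood test). These are counts over the whole gene, 11 to 22 per library, and they do not separate the deleted part from the rest, so they do not check the labels.

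Few genes differed by the test. Of 9803 genes tested, 7 had an adjusted p under 0.05 in edgeR's quasi-likelihood test, which is 0.0714%, with 3 higher (0.0306%) and 4 lower (0.0408%) in cKO cells. DESeq2 called 319, 177 higher and 142 lower. At an unadjusted p under 0.05 edgeR gave 1971 genes, 20.1% of those tested. In 869 genes (8.86%) every cKO library lay above every WT library, and in 782 (7.98%) every one lay below. These shares are the background for the counts of list members given below.

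The gene with the smallest p was Ccl1, a chemokine gene for the receptor CCR8. Its level was 25.8, 19.1 and 14.3 scaled CPM in the WT libraries and 2.59, 3.46, 3.29 and 3.61 in the cKO libraries. The lowest WT library lay far above the highest cKO library, and Ccl1 fell by 2.60 on the log2 scale (SE 0.25, adjusted p = 0.0123). Slc43a3, which codes for a purine nucleobase transporter, stood at 19.3, 21.3 and 24.1 scaled CPM in WT and at 6.47, 5.44, 5.64 and 8.66 in cKO. The 2 groups did not overlap, and Slc43a3 fell by 1.71 (log2, SE 0.20, adjusted p = 0.0300). Actn2, which codes for an actin-crosslinking alpha-actinin, was at 4.65, 5.25 and 8.60 scaled CPM in WT and at 22.0, 24.5, 32.0 and 19.5 in cKO. All cKO libraries were above all WT libraries, and Actn2 rose by 1.98 (log2, SE 0.26, adjusted p = 0.0355).

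In GENCODE M21 (build GRCm38, the mm10 of the deposited counts) the gene models lie as follows: Ccl1 at chr11:82176657-82305690, Slc43a3 at chr2:84936579-84958509 and Actn2 at chr13:12269426-12340760. The coreceptor genes are Cd8a at chr6:71373427-71379173 and Cd8b1 at chr6:71322788-71337494. All counts are over whole genes.

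The other genes called higher were Cd8a and Cd8b1, described below with the CD8 and cytotoxic list. The other genes called lower were the predicted gene Gm11027 and the immunoglobulin kappa segment Igkv4-91, both outside the naming rule and named after their values were seen. Gm11027 had 102 counts over the 3 WT libraries and 0 over the 4 cKO libraries, which is at least 47.5-fold lower against a floor of 3 counts over the cKO group. Igkv4-91 had 55 counts in WT and 0 in cKO, at least 25.5-fold lower on the same floor. In the CNS libraries of the same experiment both were at 0 in all 3 WT libraries. There Gm11027 was above 0 only in cKO library 2, at 5.69 scaled CPM, and Igkv4-91 only in cKO library 1, at 2.71.

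**Figure D1:**
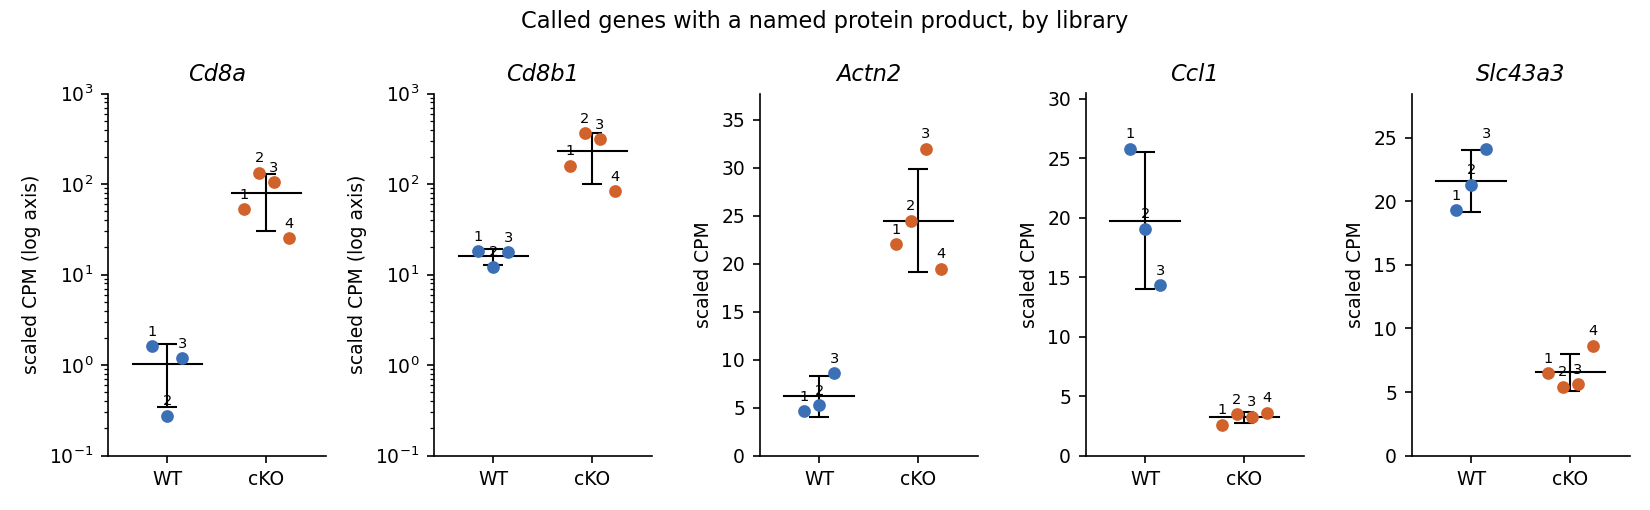
Scaled CPM (y axis; log axis for Cd8a and Cd8b1) of 5 called genes in the 3 WT and 4 cKO dLN libraries. Numbered points are libraries, the long line is the mean and bars are ± SD. Ccl1 and Slc43a3 lie lower, and Cd8a, Cd8b1 and Actn2 higher, in every cKO library.

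Genes next in rank by p were given by the same rule and none was called. On the higher side stood Prf1, Nsg2, Bcl2, Jaml, Ccr9, Itgae and Slc16a5. Jaml, an adhesion molecule of intraepithelial T cells, gave a log2 fold change of 4.20 (SE 0.67, adjusted p = 0.0608), Nsg2 gave 3.41 (SE 0.53, adjusted p = 0.0583) and Slc16a5, a monocarboxylate transporter family gene, 3.33 (SE 0.56, adjusted p = 0.0608). Each was highest in cKO library 2 or 3 and lowest in cKO library 4.

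On the lower side stood Kif22, Stra6, Cd81, Hist1h2ao, Slco4a1, Ebi3, Lxn and Msc. Kif22, a chromosome-binding kinesin, was at 34.2, 31.8 and 36.1 scaled CPM in WT and at 15.5, 12.6, 12.9 and 19.5 in cKO (log2 fold change -1.17, SE 0.17, adjusted p = 0.0551). Ebi3, a subunit of IL-27 and IL-35, was at 34.9, 26.5 and 36.6 in WT and at 4.96, 5.93, 9.63 and 15.9 in cKO (log2 fold change -1.85, SE 0.33, adjusted p = 0.0641). Neither overlapped between groups. Stra6, a vitamin A transporter, gave -2.56 (SE 0.40, adjusted p = 0.0583), Cd81, a tetraspanin, -0.94 (SE 0.15, adjusted p = 0.0583) and Msc, a helix-loop-helix repressor, -1.59 (SE 0.29, adjusted p = 0.0654).

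CD8 and cytotoxic RNA was higher in the cKO libraries. Cd8a, the alpha chain of the CD8 coreceptor, stood at 1.63, 0.277 and 1.19 scaled CPM in WT and at 53.0, 133, 105 and 25.3 in cKO. It was close to absent in every WT library, highest in cKO library 2 and lowest in cKO library 4, and it rose by 6.17 (log2, SE 0.76, adjusted p = 0.0355). Cd8b1, the beta chain, was at 18.1, 12.2 and 17.7 scaled CPM in WT and at 160, 367, 314 and 83.7 in cKO. The cKO libraries kept the same order as for Cd8a, and Cd8b1 rose by 3.84 (log2, SE 0.51, adjusted p = 0.0355).

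Of the 28 genes on the CD8 and cytotoxic list, 19 were tested, 2 were called higher (Cd8a and Cd8b1) and none lower. In 10 of the 19 (52.6%) every cKO library lay above every WT library, and in 0 below. The median log2 fold change was 1.38 against 0.02 over all genes tested. With Xcl1, which had 0 counts in WT, held at its bound, the median was also 1.38. Prf1, the pore-forming protein perforin, stood at 0.465, 0.277 and 0.478 scaled CPM in WT and at 11.6, 28.9, 20.0 and 4.81 in cKO. Prf1 did not overlap between groups but missed the threshold (log2 fold change 5.20, SE 0.79, adjusted p = 0.0583). Itgae, the CD103 integrin chain, gave 3.76 (SE 0.62, adjusted p = 0.0608) and Nkg7, a cytotoxic granule membrane protein, 2.05 (SE 0.40, adjusted p = 0.0655).

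Of the granzyme genes, which code for granule proteases, 4 were tested and all 4 overlapped between groups. Gzmm was at 2.32, 1.38 and 1.67 scaled CPM in WT and at 3.23, 7.66, 4.70 and 1.68 in cKO, in the library order of Cd8a (log2 fold change 1.24, SE 0.51, adjusted p = 0.217). Gzma was at 6.74, 12.2 and 15.5 scaled CPM in WT and at 3.02, 4.20, 9.40 and 25.3 in cKO and was highest in library 4 (log2 fold change -0.14, SE 0.62, adjusted p = 0.920). Gzmb gave 0.13 (SE 0.45, adjusted p = 0.896), Gzmk gave -0.74 (SE 0.68, adjusted p = 0.578), and the chemokine gene Ccl5 gave 0.25 (SE 0.48, adjusted p = 0.811). Fasl, a death ligand, had a log2 fold change of -0.81 (SE 0.33, adjusted p = 0.222). Eomes, a T-box factor of CD8 memory cells, was too low to be tested, with 0 to 0.232 scaled CPM in WT and 0.962 to 3.29 in cKO. Xcl1, a chemokine gene of CD8 and NK cells, had 0 counts in WT and 87 in cKO, at least 21.2-fold higher against a floor of 3 counts over the WT group, and missed the threshold (adjusted p = 0.0827).

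Receptor segments varied in the same library order. Trbv16, the segment of the 2D2 beta chain, made up 99.5%, 99.4% and 99.2% of Trbv counts in WT libraries and 98.1%, 91.8%, 96.9% and 98.7% in cKO libraries. All WT shares lay above all cKO shares, with a mean difference of -3.02 percentage points. The exact permutation test over 35 splits gave a 2-sided p = 0.0571, the smallest it can give here (0.114 after Benjamini-Hochberg adjustment over 4 library measures). Trav9-3, the sum of Trav9d-3 and Trav9n-3, made up 90.4%, 88.9% and 89.9% of Trav counts in WT and 85.9%, 72.9%, 82.2% and 87.3% in cKO (exact permutation p = 0.0571). These shares had 95% Wilson intervals of at most 1.15 points to either side, for counting error only. The number of Trbv segments with a count was 5, 8 and 9 in WT and 18, 22, 19 and 14 in cKO.

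The order of the 4 cKO libraries was the same for several of these readouts. Cd8a, Cd8b1, Prf1, Nkg7, Ctsw, Itgae and Ccr9 were highest in library 2, then 3, 1 and 4, and the Trbv16 and Trav9-3 shares ran in the opposite order. The first principal component of log CPM over the genes tested had the same order, at 37.2, 31.1, 24.7 and -7.29 in cKO libraries 2, 3, 1 and 4. This order is therefore not particular to CD8 RNA. Ctsw, a cathepsin of cytotoxic cells, gave a log2 fold change of 1.54 (adjusted p = 0.0608), and Ccr9, a gut-homing receptor, 4.06 (adjusted p = 0.0608). Cd4, the coreceptor of 2D2 cells, was at 158, 144 and 182 scaled CPM in WT and at 146, 59.3, 94.2 and 149 in cKO. Cd4 was lowest in library 2 and within the WT range in libraries 1 and 4 (log2 fold change -0.52, SE 0.27, adjusted p = 0.320). In bulk libraries fewer cells of a type and less RNA per cell cannot be told apart.

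Summed markers of other cell types were low or overlapped between groups. NK cell markers summed to 2.77 to 19.4 scaled CPM in WT and 3.88 to 11.6 in cKO, and Ncr1, a defining NK receptor gene, was at 0 in all cKO libraries. B cell markers summed to 146 to 223 in WT and 179 to 370 in cKO. Of 10 tested members 1 lay above in every library (10%, against 8.86% of all genes tested) and 0 below. The B cell list had a median log2 fold change of 0.70, with 7 members positive and 3 negative. Without cKO library 4, 1 of its 10 tested members was called, Ighm, which rose by 1.08 (log2, adjusted p = 0.00778, edgeR quasi-likelihood test). In that fit 4.36% of all genes tested were called higher. Macrophage and dendritic cell markers summed to 236 to 467 in WT and 271 to 430 in cKO, and 4 of their 7 tested members ran in the cKO library order of Cd8a (57.1%, against 6.29% of all genes tested). With all libraries kept, none of these lists had a called gene, and their part in the results was not tested.

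**Figure D2:**
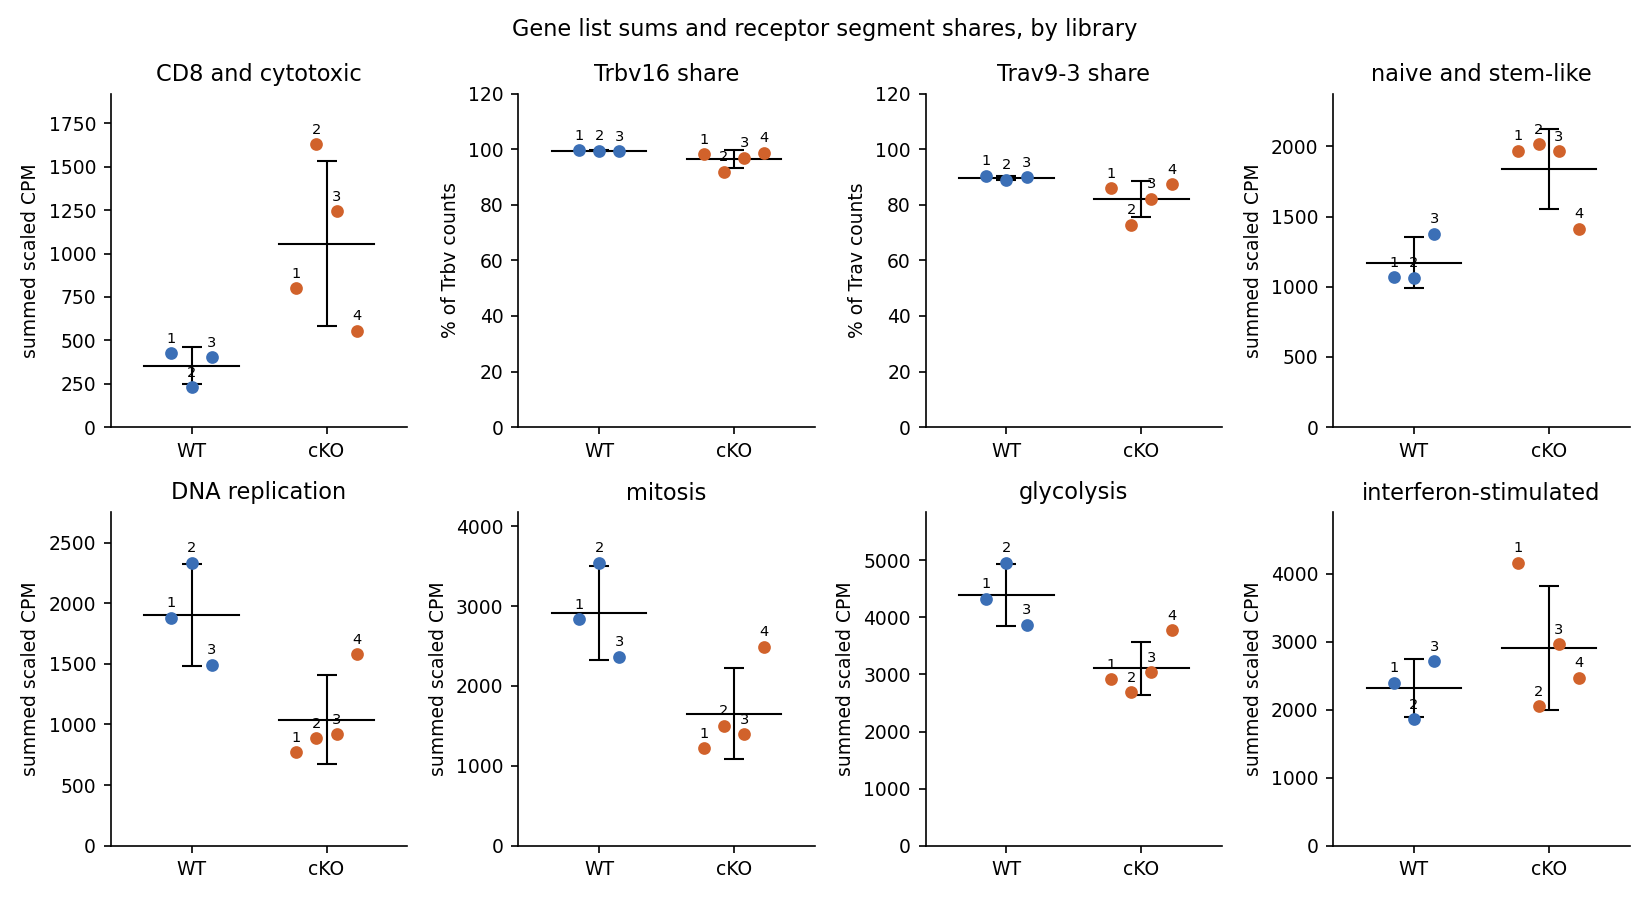
Summed scaled CPM of 6 gene lists, and the shares of Trbv16 and Trav9-3 (% of Trbv or Trav counts), in each WT and cKO dLN library. Points are libraries numbered within their group, lines are means and bars ± SD. Library cKO 2 has the highest CD8 sum and the lowest receptor shares, and library cKO 4 has replication and mitosis sums inside the WT range.

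T cell core genes went in different directions. Of 24 tested, none was called, 4 lay above (16.7%) and 1 below (4.17%) in every library, and the median log2 fold change was 0.17. Thy1, a T cell surface glycoprotein, was at 67.6, 68.3 and 66.2 scaled CPM in WT and at 118, 139, 108 and 95.5 in cKO, without overlap (log2 fold change 0.77, SE 0.14, adjusted p = 0.0654). Trbc2, a constant region of the receptor beta chain, was at 15976 ± 554 scaled CPM in WT and 8394 ± 3346 in cKO (SD, n = 3 and 4), with the lowest level in cKO library 2. It missed the threshold (log2 fold change -0.93, SE 0.29, adjusted p = 0.136).

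Naive and stem-like genes were above WT in many cases. All 20 list members were tested, none was called, 12 lay above in every library (60%) and 0 below. The median log2 fold change was 0.78. Dapl1, a gene of resting T cells, was at 5.58, 8.02 and 10.3 scaled CPM in WT and at 44.8, 107, 82.5 and 22.8 in cKO (log2 fold change 3.01, SE 0.52, adjusted p = 0.0608). The lowest cKO library was above the highest WT library, and the cKO libraries ran in the order of Cd8a.

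In 9 of the 20 members (45%) the cKO libraries ran in the order of Cd8a, against 6.29% of all genes tested, and Bcl2, Lef1, Tcf7 and Ccr7 were among them. That order is also the order of the cKO libraries on the first principal component, so it does not tie these members to CD8 RNA. Bcl2, a survival factor, was at 20.4, 22.4 and 22.7 scaled CPM in WT and at 41.8, 45.2, 43.7 and 33.9 in cKO (log2 fold change 0.91, SE 0.14, adjusted p = 0.0583). Bach2, a repressor of effector differentiation, gave 1.70 (SE 0.33, adjusted p = 0.0655) and was highest in cKO library 3. Lef1 and Tcf7, transcription factors of naive and stem-like T cells, gave 1.00 (SE 0.22, adjusted p = 0.0762) and 0.61 (SE 0.17, adjusted p = 0.112). Ccr7, the receptor for lymph node chemokines, gave 0.64 (SE 0.20, adjusted p = 0.134), and its lowest cKO library, at 164.5 scaled CPM, lay just above its highest WT library, at 163.6. CD8 T cells with a resting phenotype also express these genes, and the part of CD8 RNA in this list was not tested. The covariate fit given with the library counts cannot separate CD8 RNA from genotype.

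Cell cycle genes were below WT in 3 of the 4 cKO libraries. The mitosis list had a median log2 fold change of -1.30, with 44 of 44 tested members negative, 20 below in every library (45.5%), 0 above and none called. Its summed level was 2832, 3541 and 2365 scaled CPM in WT and 1218, 1501, 1397 and 2492 in cKO. Library cKO 4 lay inside the WT range and the other cKO libraries lay below it. DNA replication genes had a median of -0.91 over 40 tested members, with 12 below in every library (30%) and 0 above. Replication-dependent histone genes had a median of -1.28 over 24 tested, with 5 below in every library (20.8%). Hist2h3c2, a histone H3 gene, was at 73.0, 118 and 69.8 scaled CPM in WT and at 15.7, 17.1, 21.6 and 60.8 in cKO (log2 fold change -1.59, SE 0.43, adjusted p = 0.109). Among the 4 cKO libraries the mitosis sum was highest in library 4, where Cd8a was lowest, and lowest in library 1. This order was neither that of Cd8a nor its exact reverse. The relation of cell cycle genes to CD8 RNA was not tested, as the covariate fit given with the library counts cannot separate CD8 RNA from genotype.

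Promoters of mitosis and replication genes are shown because these members lay lower together. Each line is the 250 bases upstream of the start of transcription, read 5′ to 3′ on the gene's strand from RefSeq windows of build GRCm38.p6, and members without a window were left out. Capitals mark, in Cdc20 and Bub1b, CCAAT and the letters TTTGAA or TTCGAA of the cell cycle homology region. In Aurka they mark CCAAT only, as its window held neither TTTGAA nor TTCGAA. In Mcm6 and Uhrf1 they mark the letters TTTNNCGC of an E2F-type site. All were searched on either strand. The 5 genes were chosen after their values were seen, from list members that hold a match. Their positions are chr4:118437344-118437593 (- strand), chr2:172370571-172370820 (-), chr2:118597961-118598210 (+), chr1:128359706-128359955 (-) and chr17:56303087-56303336 (+).
Cdc20: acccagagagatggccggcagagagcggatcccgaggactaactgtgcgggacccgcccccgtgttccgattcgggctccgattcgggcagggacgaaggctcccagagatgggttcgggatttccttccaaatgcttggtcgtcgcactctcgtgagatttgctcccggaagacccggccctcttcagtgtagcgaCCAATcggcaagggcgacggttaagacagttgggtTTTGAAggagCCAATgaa
Aurka: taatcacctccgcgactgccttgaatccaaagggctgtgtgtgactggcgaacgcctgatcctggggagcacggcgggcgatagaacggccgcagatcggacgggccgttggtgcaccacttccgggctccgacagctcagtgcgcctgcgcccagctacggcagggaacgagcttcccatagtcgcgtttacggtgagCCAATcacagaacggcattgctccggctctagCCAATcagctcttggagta
Bub1b: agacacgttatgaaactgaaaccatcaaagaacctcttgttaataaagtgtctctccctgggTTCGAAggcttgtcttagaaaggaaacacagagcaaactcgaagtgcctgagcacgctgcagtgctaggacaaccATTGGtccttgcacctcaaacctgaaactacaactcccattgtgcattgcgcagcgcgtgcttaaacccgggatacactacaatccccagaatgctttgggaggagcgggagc
Mcm6: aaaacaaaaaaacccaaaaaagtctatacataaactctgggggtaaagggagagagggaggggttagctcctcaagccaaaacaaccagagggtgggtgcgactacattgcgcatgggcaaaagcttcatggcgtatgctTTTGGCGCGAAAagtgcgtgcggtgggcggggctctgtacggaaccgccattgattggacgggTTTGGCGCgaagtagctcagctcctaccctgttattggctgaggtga
Uhrf1: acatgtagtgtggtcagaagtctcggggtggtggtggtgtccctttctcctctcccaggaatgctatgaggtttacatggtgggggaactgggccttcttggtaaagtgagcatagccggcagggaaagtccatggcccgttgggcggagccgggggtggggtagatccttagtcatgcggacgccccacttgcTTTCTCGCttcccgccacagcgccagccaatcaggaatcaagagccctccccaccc

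CCAAT was present in the window of 29 of 38 mitosis genes with a promoter (76.3%), of 20 of 33 replication genes (60.6%) and of 34.5% of all 27025 promoters and 37.7% of those of genes tested in the dLN. TTTGAA or TTCGAA was present in 13 of 38 mitosis genes (34.2%), 17.4% of all promoters and 13.1% of those of genes tested. The same letters were in 13 of 31 interferon-stimulated genes (41.9%) and 6 of 20 CD8 and cytotoxic genes (30%). TTTNNCGC was present in 9 of 33 replication genes (27.3%), 4.39% of all promoters and 7.74% of those of genes tested. A match is a description of the letters only.

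Cdc20, an activator of the anaphase-promoting complex, was at 65.8, 76.3 and 41.6 scaled CPM in WT and at 16.4, 18.5, 13.4 and 37.8 in cKO. The groups did not overlap, with cKO library 4 just under the lowest WT library (log2 fold change -1.51, SE 0.33, adjusted p = 0.0762). Aurka, a mitotic kinase, was at 20.0, 19.4 and 15.1 scaled CPM in WT and at 4.74, 4.45, 4.70 and 11.3 in cKO (log2 fold change -1.52, SE 0.31, adjusted p = 0.0719). Cdc20 and Aurka share the pattern of a higher cKO library 4. Bub1b, a spindle checkpoint kinase, gave -1.61 (SE 0.36, adjusted p = 0.0762), and Dut, which keeps uracil out of DNA, gave -1.18 (SE 0.25, adjusted p = 0.0719). Mcm2, part of the replicative helicase, gave -0.75 (SE 0.19, adjusted p = 0.0989).

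**Figure D3:**
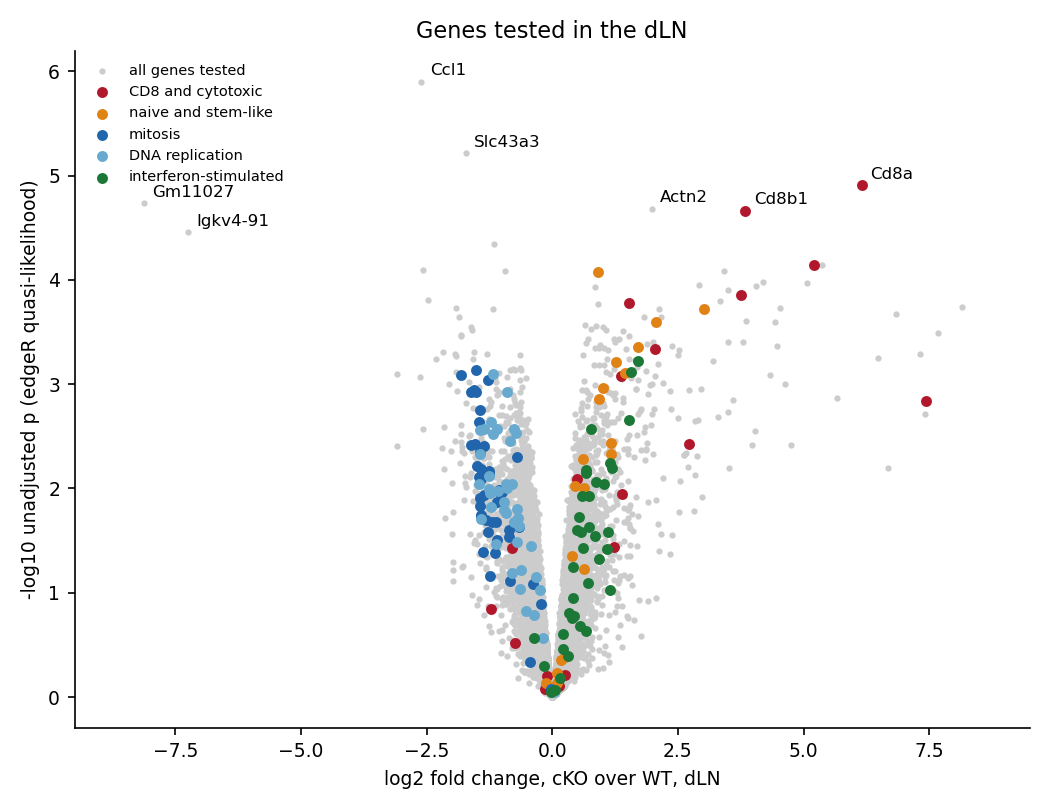
Log2 fold change of cKO over WT (x axis) against -log10 of the unadjusted p of edgeR's quasi-likelihood test (y axis) for the 9803 genes tested in the dLN. Each point is a gene, 5 lists are coloured and the 7 called genes are named. All 44 mitosis genes and 39 of 40 replication genes lie left of 0, and CD8, naive and interferon genes mostly right.

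Lists of glycolysis, nuclear oxidative phosphorylation and protein folding had medians under 0. The 13 mitochondrially encoded genes had a median of 0.037, with 0 above and 0 below in every library. Glycolysis had a median log2 fold change of -0.35 over 19 tested, with 9 below in every library (47.4%) and 0 above, and none called. Over all genes tested, 7.98% lay below and 8.86% above. Gapdh, a glycolytic dehydrogenase, was at 1517, 1702 and 1293 scaled CPM in WT and at 838, 809, 948 and 1283 in cKO (log2 fold change -0.63, SE 0.17, adjusted p = 0.109). Nuclear genes of oxidative phosphorylation had a median of -0.21 over 60 tested with 17 below (28.3%) and 0 above. Heat shock and endoplasmic reticulum folding genes had a median of -0.34 over 24 tested with 11 below (45.8%) and 0 above. Cytosolic ribosomal proteins differed in direction, with a median of 0.18 over 77 tested, 19 above (24.7%) and 1 below (1.3%). No member of these lists was called.

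Effector genes of Th17 cells were near or at 0 in the dLN. Il17a, the signature cytokine, had 0 counts in all 7 libraries, and Csf2 had a level above 0 only in cKO library 1, at 0.431 scaled CPM. Il23r, a receptor chain for IL-23, was at 0 in WT and 0 to 0.470 in cKO. Il17f, another Th17 cytokine gene, was at 0 to 0.465 in WT and 0.470 to 1.72 in cKO. Every cKO library lay above every WT library for Il17f, but on only 0 to 8 counts per library. None of these passed the filter on low counts. Of 20 genes on the Th17 list, 9 were tested, none called, 3 lay below in every library (33.3%) and the median was -0.67. Batf, a factor needed for Th17 differentiation, was at 73.4, 70.5 and 63.8 scaled CPM in WT and at 50.7, 38.3, 45.8 and 48.3 in cKO (log2 fold change -0.60, SE 0.13, adjusted p = 0.0762).

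Th1 genes went in both directions, with a median log2 fold change of -0.20 over 13 tested and none called. Of these, 2 lay above and 2 below in every library (15.4% each). Tbx21, the Th1 factor T-bet, was at 30.4, 28.5 and 22.0 scaled CPM in WT and at 6.68, 12.6, 10.6 and 22.1 in cKO, where library 4 reached the WT range (log2 fold change -1.06, SE 0.32, adjusted p = 0.130). Cxcr3, a Th1 chemokine receptor, gave -0.91 (SE 0.22, adjusted p = 0.0929) and Il12rb2, an IL-12 receptor chain, -1.54 (SE 0.40, adjusted p = 0.107). Tnfrsf4, the costimulatory receptor OX40, gave -1.08 (SE 0.24, adjusted p = 0.0769). Foxp3, the regulatory T cell factor, had 0 counts in WT and 58 in cKO, at least 13.7-fold higher against a floor of 3 counts over the WT group, and missed the threshold (adjusted p = 0.0641). The cKO levels of Foxp3 were 3.67, 5.19, 3.29 and 1.44 scaled CPM. Of 7 tested members of the regulatory T cell list, Foxp3 was the only positive one and 6 were negative. The list had a median log2 fold change of -0.42, with 1 above (14.3%) and 2 below (28.6%) in every library and none called.

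Cytokine receptor and SOCS genes split, with 9 of 26 tested above (34.6%) and 6 below (23.1%) in every library. Socs2, a feedback inhibitor of cytokine signalling, was at 27.9, 32.1 and 19.1 scaled CPM in WT and at 5.17, 6.43, 11.7 and 12.5 in cKO (log2 fold change -1.55, SE 0.30, adjusted p = 0.0663). Il6st, the shared IL-6 receptor subunit gp130, gave 2.36 (SE 0.55, adjusted p = 0.0883) and ran in the order of Cd8a.

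Interferon-stimulated genes had a median log2 fold change of 0.63 over 38 tested, with 9 above (23.7%), 0 below and none called. Ifi213, an interferon-inducible DNA-sensor family gene, was at 16.0, 11.1 and 23.2 scaled CPM in WT and at 70.7, 64.5, 57.3 and 27.2 in cKO (log2 fold change 1.70, SE 0.34, adjusted p = 0.0676). The summed level of the list overlapped, from 1862 to 2710 in WT and from 2053 to 4161 in cKO, where library 1 was highest.

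Glucocorticoid-induced genes had a median of 0.29 over 17 tested, with 5 above (29.4%) and 2 below (11.8%) in every library and none called. Tsc22d3, the glucocorticoid target GILZ, was at 64.4, 85.4 and 110 scaled CPM in WT and at 209, 256, 202 and 140 in cKO (log2 fold change 1.22, SE 0.23, adjusted p = 0.0655). Mt1, a metallothionein gene of the same list, gave -2.01 (SE 0.54, adjusted p = 0.109). Nr3c1, the glucocorticoid receptor gene, gave 0.61 (SE 0.23, adjusted p = 0.180).

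Other chromatin genes gave few differences. Of 9 tested CHD family members 2 lay above in every library (22.2%) and none was called. Chd3, a NuRD remodeller subunit, was at 23.2, 26.3 and 24.1 scaled CPM in WT and at 43.1, 51.9, 47.9 and 29.1 in cKO (log2 fold change 0.81, SE 0.20, adjusted p = 0.0936). Rbbp7, a histone-binding protein, gave -0.85 (SE 0.18, adjusted p = 0.0719) and Asf1a, a histone chaperone, -0.77 (SE 0.18, adjusted p = 0.0917).

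**Figure D4:**
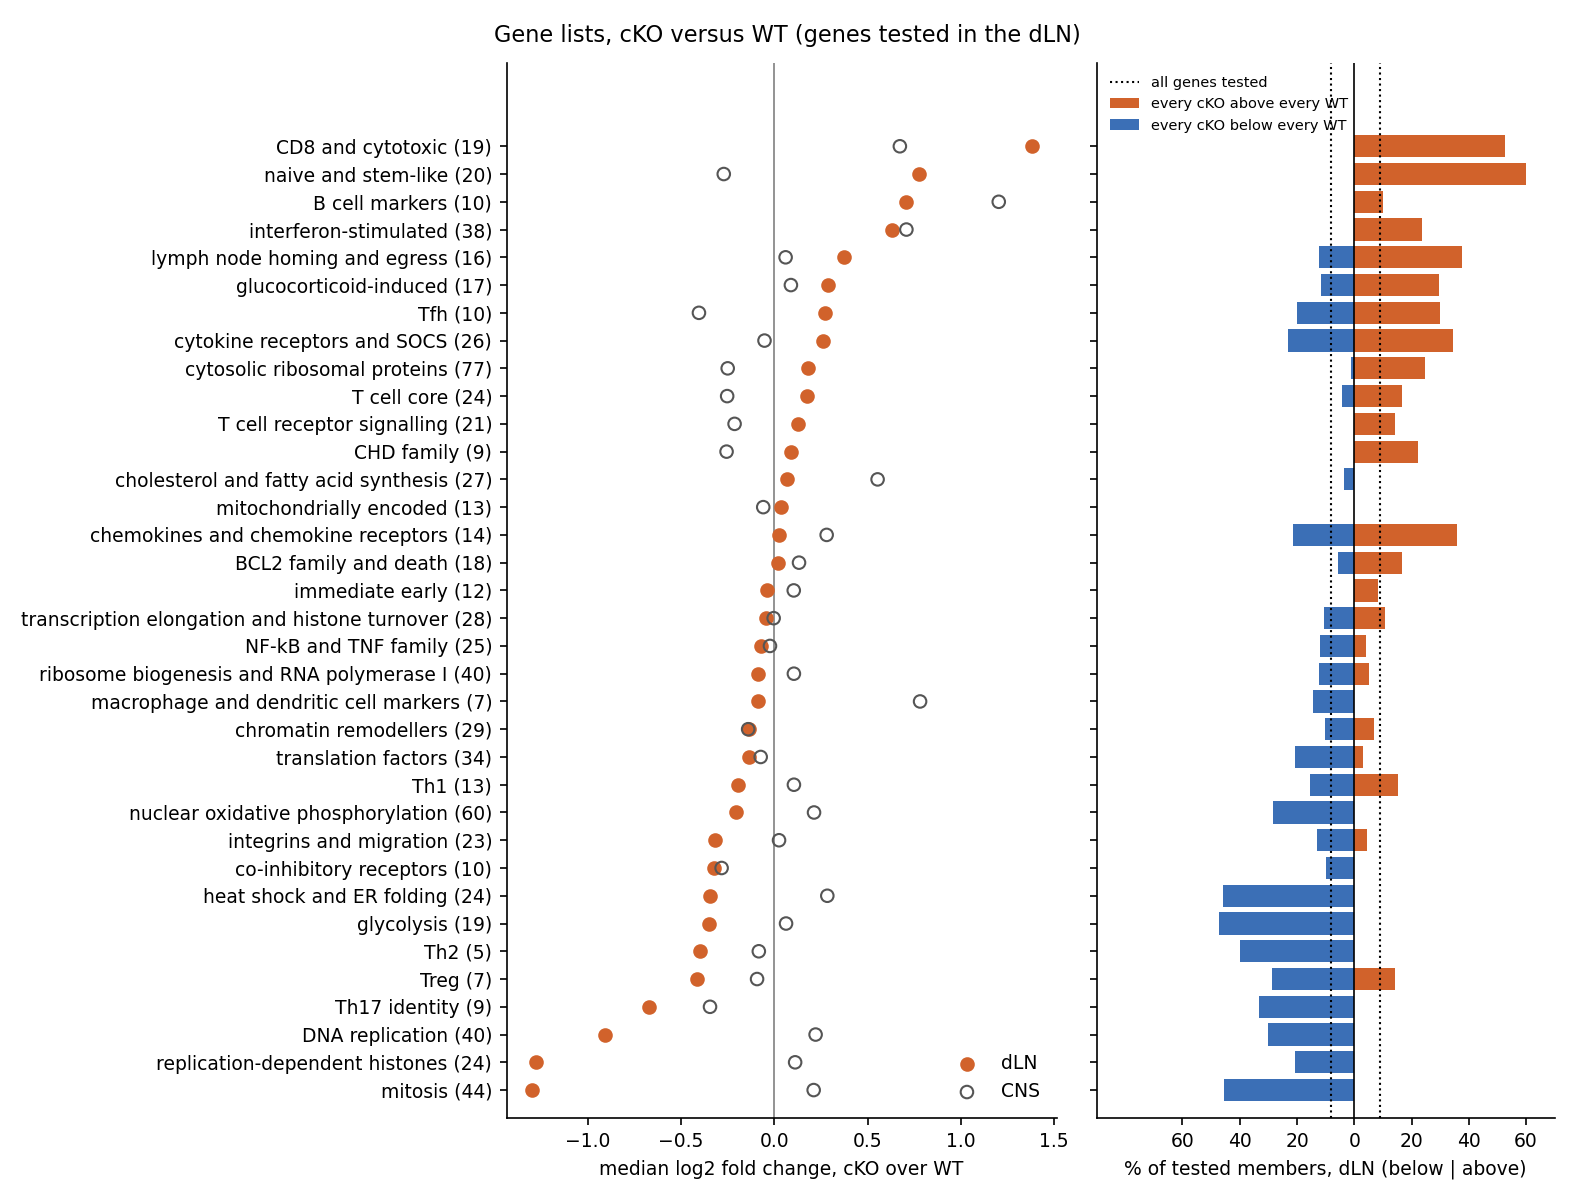
Left, median log2 fold change of cKO over WT for each gene list in the dLN (filled) and the CNS (open), with the number of members tested in the dLN in parentheses. Right, % of tested members with every cKO library above (orange) or below (blue) every WT library in the dLN, and dotted lines for all genes tested, 8.86% above and 7.98% below. CD8 and naive lists reach furthest above, and mitosis, glycolysis and folding furthest below.

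The count of calls rested on single libraries. Across the 9803 genes tested, the log CPM of cKO library 4 had a Pearson r of 0.958, 0.945 and 0.961 with WT libraries 1 to 3 and of 0.947, 0.933 and 0.943 with cKO libraries 1 to 3. The genes are not independent, and these values describe the libraries only. On the first principal component, which held 45.8% of the variance, library 4 was at -7.29, between the WT libraries (-41.5 to -16.5) and the other cKO libraries (24.7 to 37.2). Without cKO library 4, 990 of 9696 genes were called, 423 higher (4.36%) and 567 lower (5.85%). Among the mitosis genes 37 of 44 then fell, among DNA replication genes 29 of 40 and among tested histone genes 13 of 21, with none higher. Of the naive and stem-like genes 12 of 20 rose, of the interferon-stimulated genes 17 of 38 and of the CD8 and cytotoxic genes 10 of 18, with none lower. Aurka then fell by 1.96 on the log2 scale (adjusted p = 0.00192) and Cdc20 fell by 1.92 (adjusted p = 0.00245). List counts were taken for no other single left-out library. The mitosis and replication sums of cKO library 4 lay inside the WT range, so the counts without it are not separate evidence for these lists. With the sum of Cd8a and Cd8b1 as a covariate no gene was called. The covariate itself did not overlap between groups, so this fit cannot separate CD8 RNA from genotype. No gene was called without WT library 1, WT library 2, cKO library 2 or cKO library 3, and 2 were called without WT library 3. Without cKO libraries 2 and 3 together, a setting chosen after seeing the data, 1 gene was called.

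Cells sorted from the CNS of the same experiment, 3 WT and 4 cKO libraries, were compared for the same lists. There 1 of 11157 genes was called (0.00896%), Cd209a, a dendritic cell lectin gene, named after its values were seen, which rose by 2.93 (log2, SE 0.30, adjusted p = 0.0259, edgeR). No gene was called in both tissues, but only 4 of the 7 dLN calls passed the filter on low counts in the CNS, and Cd8a, Gm11027 and Igkv4-91 were not tested there. Cd209a was not tested in the dLN. Of 11589 genes in a joint fit, 13 (0.112%) were called for a difference of the cKO effect between tissues, and 0 to 648 when 1 library was left out, with 648 without cKO dLN library 4. Ccl1 was among them, at 556 ± 150 scaled CPM in WT and 915 ± 350 in cKO in the CNS (SD, n = 3 and 4), so that its log2 fold change was 0.72 there. The difference for Ccl1, CNS minus dLN, was 3.32 (SE 0.49, adjusted p = 0.0304). Slc43a3 differed by 1.93 (SE 0.30, adjusted p = 0.0365), and Cd8b1 by -3.97 (SE 0.57, adjusted p = 0.0297), where the CNS groups were at 29.7 ± 2.7 and 27.5 ± 6.4. In the CNS 9 of 22 tested members of the CD8 and cytotoxic list had every cKO library above every WT library, and 0 below. Over all genes tested there the shares were 5.95% and 6.83%. The list had a median log2 fold change of 0.67 in the CNS, with none called, and a median difference between tissues of -0.59. The members above WT were not the same in both tissues. Cd8b1, Nkg7, Ctsw and Itgae overlapped in the CNS, Xcl1 and Klrk1 lay above in both, and Gzma and Serpinb9 only in the CNS. NK cell markers summed to 568 to 832 scaled CPM in WT and 697 to 1481 in cKO there, and their part in the list was not tested.

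Lef1 differed by -1.73 (SE 0.30, adjusted p = 0.0472), and Sdf2l1, an endoplasmic reticulum folding factor, by 1.98 (SE 0.32, adjusted p = 0.0388). Inpp4b, Kif21b, Ogt and Rpl23 were also called and are drawn in the plot of tissue effects. The mitosis list had a median difference of 1.43, positive in 43 of 44 members, and DNA replication one of 1.07, positive in 40 of 40, with no member called. The naive and stem-like list had a median difference of -0.87, with 1 member, Lef1, called. Interferon-stimulated genes had a median log2 fold change of 0.71 in the CNS and a median difference of -0.0038 between tissues. In the CNS, 17 of 39 of them had every cKO library above every WT library, against 5.95% of all genes tested there, and 34 of 77 ribosomal protein genes had every cKO library below, against 6.83%. Macrophage and dendritic cell markers were at 7488 to 9328 summed scaled CPM in WT and 10046 to 18503 in cKO in the CNS, and their part in these differences was not tested.

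**Figure D5:**
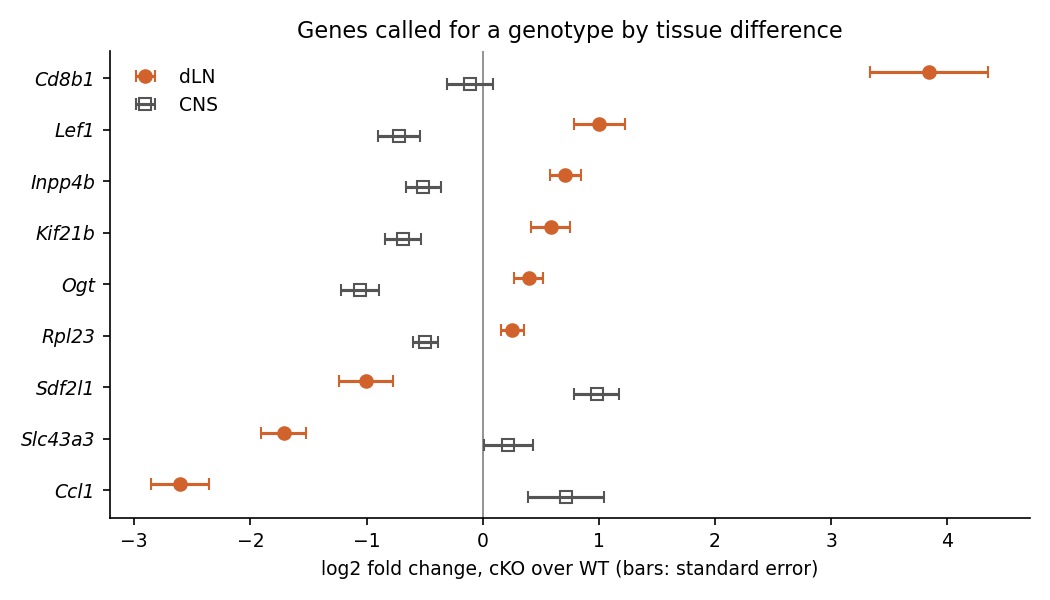
Log2 fold change of cKO over WT (x axis) in the dLN (filled) and the CNS (open) for 9 of the 13 genes called for a genotype by tissue difference, those tested in both tissues. Bars are standard errors. Cd8b1, Lef1, Inpp4b, Kif21b, Ogt and Rpl23 lie higher in the dLN, and Ccl1, Slc43a3 and Sdf2l1 lower.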

How the data were processed

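RNA sequencing covered 2000 sorted cells per library. The deposited values were expected counts (estimated counts, rounded) from RSEM 1.3.3 with genome mm10, made by the authors per the submitters' processing notes. No source used here names the aligner or the annotation release. Of 31053 symbols, 30532 were found in GENCODE M21. Counts were tested in R 4.3.3 with edgeR 4.0.16 (filterByExpr minimum count 10 and total 15, TMM, quasi-likelihood F test), and a gene was called at an adjusted p under 0.05 (Benjamini-Hochberg). Groups came from the titles in the labels. The tissue comparison used 1 fit of both CHD1 tables. Alternatives included DESeq2 1.42.0, other filters, a replicate block, a Cd8a plus Cd8b1 covariate and leaving out each library.

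Named genes were a fixed set, up to 12 called genes per direction (the 10 with the smallest p where fewer were called) and up to 6 members per list, and some of these are not reported here. Members and lists were chosen with earlier results of these data known. Tested on simulated data of this comparison (9580 genes), the fit called 80 of 107 genes changed 2-fold and 93 of 93 changed 4-fold. The changed genes all had a mean of at least 10 CPM, and the libraries of a group were drawn around the same level. No simulated library was set between the groups, where cKO library 4 lay, so these rates may not hold for the real libraries. Sequences came from the RefSeq promoter table (GRCm38.p6).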

Additional observations from a re-analysis of the deposited data

Results flagged for a closer look

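In 4 of 68 sets of 4 cKO values, 1 library stood far from the other cKO libraries by Dixon's test, and chance flags about 1 in 20 such sets. In 3 of the 4 it was cKO library 4. Aurka was at 11.3 scaled CPM there against 4.45 to 4.74 in the others, and Bub1b at 16.1 against 5.17 to 6.47. Hist2h3c2 was at 60.8 against 15.7 to 21.6. Xcl1 stood apart in cKO library 2, at 12.6 scaled CPM against 1.94 to 3.61.

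The cKO effect differed between the CNS and the dLN by an interaction test (edgeR quasi-likelihood, adjusted p under 0.05) for 5 of the named genes. The log2 difference, CNS minus dLN, was 3.32 for Ccl1, 1.93 for Slc43a3, 1.98 for Sdf2l1, -1.73 for Lef1 and -3.97 for Cd8b1. No gene was called in this test without WT dLN library 1 or 2, without cKO dLN library 1, 2 or 3, or without any 1 WT CNS library.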

How the results depend on the processing

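The count of 7 called genes in the dLN (3 higher, 4 lower) depended on the settings, and the cause was not tested. DESeq2 called 319 (177 higher, 142 lower), edgeR without a filter on low counts 511 (261 and 250) and a joint fit of both tissues 192 (104 and 88). A filter at a mean of 10 CPM left 5 calls, 2 of them lower. Leaving out 1 library gave 0 to 990 calls (0 to 423 higher, 0 to 567 lower). Leaving out cKO libraries 2 and 3 together, chosen after seeing the data, gave 1 call, which was higher, and 0 lower. Removing CD8 and cytotoxic genes and receptor segments, also chosen after seeing the data, left 4 calls, 1 of them higher.

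The labels do not say that replicate numbers pair the dLN libraries. Correlations of same-numbered deviations were -0.036, -0.080 and 0.089, within the range of unlike-numbered ones, -0.166 to 0.155. With so few libraries these values show no sign of pairing but cannot exclude it. A fit with the replicate block called 613 genes (254 higher, 359 lower), and Gzmb turned to -0.18. In this fit cKO library 4 has no WT partner, and its block term takes up that library. The genotype effect then rests on libraries 1 to 3, so the fit is not independent of the one without cKO library 4. In the CNS the block gave 3 calls against 1, DESeq2 176, no filter 72 and leaving out 1 library 0 to 2. For the genotype by tissue difference (13 calls) the block gave 52, DESeq2 575, DESeq2 size factors 7, no filter 172 and leaving out 1 library 0 to 648.

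With Cd8a plus Cd8b1 as covariate there were 0 calls, 0 higher and 0 lower, and 33 of 64 named genes changed direction. The covariate is built from Cd8a and Cd8b1 themselves and did not overlap between groups. The genotype values of this fit are therefore extrapolated, and they cannot separate genotype from CD8 RNA. Log2 fold changes that turned negative were Cd8b1 -0.21, Chd3 -0.44, Nsg2 -0.11, Ccr9 -0.0026, Itgae -0.32, Slc16a5 -0.50, Ctsw -0.57, Nkg7 -1.16 and Gzmm -2.51. Also negative were Ccr7 -0.84, Tcf7 -0.29, Lef1 -0.60, Dapl1 -0.95, Il6st -1.39, Ifi213 -0.21 and Ccl5 -3.30. Those that turned positive were Cd4 1.22, Trbv16 0.83, Trbc2 0.90, Dut 0.48, Mcm2 0.48, Aurka 0.58, Cdc20 0.63, Bub1b 1.14 and Hist2h3c2 1.40. Also positive were Gapdh 0.36, Sdf2l1 0.25, Tbx21 0.28, Il12rb2 1.40, Tnfrsf4 0.29, Mt1 1.81, Gzma 3.06 and Fasl 0.68.

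Of the named genes, 3 granule or chemokine genes with values near 0 changed sign when 1 library was left out. Over libraries left out, Gzma ran from -1.05 (without cKO library 4), Gzmb up to 0.45 and Ccl5 up to 0.69. Gzma turned to 0.15 without WT library 3, 0.18 without cKO library 1 and 0.12 without cKO library 2, and to 0.29 without cKO libraries 2 and 3. Gzmb turned to -0.062 without WT library 2, -0.062 without cKO library 1 and -0.14 without cKO library 4. Ccl5 turned to -0.12 without WT library 2, -0.17 without cKO library 2 and -0.58 without cKO libraries 2 and 3. The receptor share differences kept their sign in all alternatives run, and leaving out 1 library gave -3.78 to -1.50 points for Trbv16 and -9.44 to -4.62 for Trav9-3. Depth limits genes with few counts, such as Chd1.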
